A study of Arabidopsis thaliana with 12 samples.

Results

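The 9 genes described here are expressed in root hairs of Arabidopsis thaliana: RHD6 and RSL4, which encode transcription factors, and EXPA7, EXPA18, COBL9, LRX1, LRX2, PRP1 and PRP3, which encode proteins of the cell wall. They were chosen by locus code, are 9 of 32744 genes in the count tables, and all 9 are listed there. RNA was sequenced from whole seedlings in 12 libraries, 3 for each of 4 groups: wild type at 5 d, snap33 at 5 d, wild type at 12 d and snap33 at 12 d. The labels describe snap33 as a T-DNA knock-out, give no ecotype for either genotype and give no treatment for any group. SNAP33 is a membrane-fusion protein of the SNARE class that helps secretory vesicles merge with the plasma membrane.

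Root hairs are tubular outgrowths of root epidermal cells that grow at the tip by secreting wall material. RHD6 and its relatives are basic helix-loop-helix factors that start hair formation and switch on RSL4, and RSL4 promotes hair growth and the transcription of many wall genes. The wall genes act downstream: expansins loosen the wall, COBRA-like proteins guide cellulose deposition, LRX proteins join the wall to receptor signalling through a leucine-rich repeat and an extensin-like tail, and proline-rich proteins become part of the wall itself.

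Upstream sequences of the wall genes are shown because the expression of 6 of them moved together and because a published cis-element, the root hair element, lies in several. In the 250 bases before the annotated gene start of the RefSeq TAIR10.1 annotation, a match to that element on either strand was found for 5 of the 9 genes (EXPA7, EXPA18, LRX1, PRP1 and PRP3), against 207 of 27443 protein-coding genes (0.75%) with the same window. The element was itself defined from promoters of root hair genes, EXPA7 and EXPA18 among them, and RHS genes were found by searching for it, so these shares describe the windows and are not independent evidence. Capitals mark the element, and the flanks are 20 bases on each side, written 5′ to 3′ on the strand of the gene. The matches of EXPA7 and EXPA18 read on the strand of the gene and those of LRX1, PRP1 and PRP3 on the opposite strand.
EXPA7 (chr1:4276407-4276463, + strand): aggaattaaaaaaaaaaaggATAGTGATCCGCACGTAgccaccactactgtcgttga
EXPA18 (chr1:23331503-23331558, + strand): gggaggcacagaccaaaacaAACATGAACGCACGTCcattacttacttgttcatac
LRX1 (chr1:4069879-4069934, + strand): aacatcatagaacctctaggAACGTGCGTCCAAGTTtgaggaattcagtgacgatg
PRP1 (chr1:20504752-20504808, + strand): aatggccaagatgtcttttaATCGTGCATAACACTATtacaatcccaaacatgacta
PRP3 (chr3:23182535-23182591, + strand): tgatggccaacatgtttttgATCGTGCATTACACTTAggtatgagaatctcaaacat

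The end of the element nearest the gene lies 62 bases before the start of EXPA7, 25 before that of EXPA18, 78 before that of LRX1, 113 before that of PRP1 and 151 before that of PRP3. COBL9 held no match to the full element but 3 matches, 2 of them overlapping, to its shorter core, TG and CACG with 4 or 5 bases of any kind between them, searched on both strands. Every full element contains this core. The core was found in 6 of the 9 windows and in 9.02% of all windows.
COBL9 (chr5:19974547-19974650, - strand, core in capitals): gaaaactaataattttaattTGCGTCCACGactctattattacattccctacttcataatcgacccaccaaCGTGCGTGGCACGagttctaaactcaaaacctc
The windows of RHD6, RSL4 and LRX2 held neither. LRX2 is annotated without untranslated bases, so its window ends at the start codon and not at a transcript start. Of 24 other wall and secreted proteins of root hairs, 4 held the full element (RHS18, RHS13, RHS15 and MRH6) and 14 the core. The G-box CACGTG, a common site of the same class of factors, was in 0 of the 9 windows and in 6.49% of all. A match describes the letters of a window and is not a site shown to be bound.

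**Figure D1:**
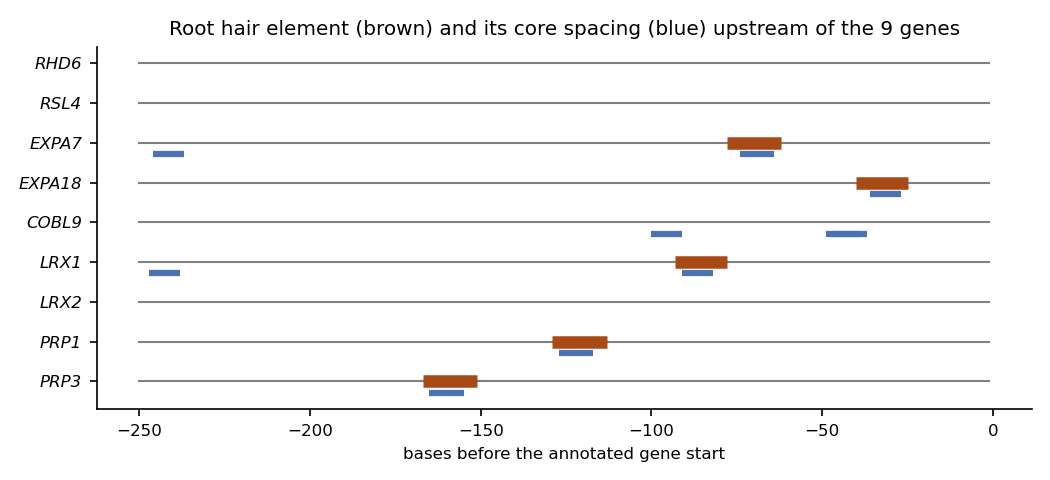
Position of the root hair element (brown) and of its shorter core (blue) in the 250 bases before the annotated start of each of the 9 genes (x axis, bases before the start). The 5 full elements end 25 to 151 bases before the start, COBL9 holds the core alone, and RHD6, RSL4 and LRX2 hold neither.

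Gene counts came to 4304441 to 5754570 per library. SNAP33 itself had 299 counts over the 3 wild-type libraries against 12 over the snap33 libraries at 5 d, and 395 against 44 at 12 d. The libraries thus matched their genotype names, although a knock-out is also mentioned in the genotype labels of the wild type. By the labels, 3 groups were sown on 29 March and snap33 at 12 d on 9 March. The latter was harvested after 32 to 34 days and the wild type at 12 d after 12 to 14, although both groups are named 12 d. Whether the earlier date is an error in the labels or the plants were older was not settled by these sources. If the date is right, age since planting and genotype cannot be told apart at 12 d. In whole seedlings, fewer root hair cells and less RNA per hair cell cannot be told apart either.

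The regulators were near the limit of detection. RHD6 (AT1G66470, chromosome 1, 24795214 to 24797015) had 2, 9 and 11 counts in the wild-type libraries and 5, 4 and 5 in snap33 at 5 d. At 12 d it had 5, 7 and 12 counts in wild type and 6, 6 and 7 in snap33. RSL4 (AT1G27740, chromosome 1, 9654475 to 9656089) had 7, 13 and 4 counts in wild type against 3, 7 and 6 in snap33 at 5 d. At 12 d its counts were 10, 8 and 17 in wild type against 6, 8 and 9 in snap33. The genotypes overlapped for both genes at both ages. Neither gene passed the filter on low counts, which asked for about 2.06 CPM (counts scaled to library size) in 3 libraries, nor did LRX2.

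Tested without that filter, RHD6 had log2 fold changes of -0.51 at 5 d and -0.33 at 12 d in snap33 against wild type (edgeR adjusted p = 0.655 and 0.672), and RSL4 of -0.44 and -0.6 (edgeR adjusted p = 0.694 and 0.336). From the summed counts the wild-type level of RSL4 was 1.38-fold that of snap33 at 5 d (exact 95% counting interval 0.702 to 2.77) and 1.52-fold at 12 d (0.874 to 2.7). For RHD6 the same ratio was 1.44 (0.706 to 3.05) and 1.26 (0.663 to 2.44). A difference between genotypes was thus not detectable at this depth, and the intervals still hold changes of the size seen in several wall genes. Intervals cover counting error alone.

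The other 6 genes passed the filter, 5 of them in all 12 libraries and PRP1 in 10, so none was tested through 1 group alone. Their levels can be ordered per kilobase of exon, which assumes reads spread along the transcript. The protocol of snap33 12 d replicate 1 mentions 3'seq, and whether the assumption holds was not tested. In wild type at 5 d PRP3 stood highest at 17 ± 4.59 CPM per kilobase (SD, n = 3), then EXPA7 at 12.7 ± 1.89, EXPA18 at 9.81 ± 1.87 and COBL9 at 7.68 ± 1.13. Neighbours among these 4 overlapped in range. PRP1 at 4.42 ± 1.66, LRX1 at 2.42 ± 0.173 and RSL4 at 1.25 ± 0.622 followed with no overlap between neighbours, RHD6 at 1.09 ± 0.716 overlapped RSL4, and LRX2 was lowest at 0.118 ± 0.0413. In snap33 at 12 d the order was PRP3, EXPA7, EXPA18, COBL9, PRP1, RSL4, LRX1, RHD6 and LRX2, and LRX1, at 1.04 ± 0.166 CPM per kilobase, overlapped RSL4 at 1.07 ± 0.24. The place of LRX1 beside RSL4 depends on the division by length. Undivided, LRX1 stood at 3.31, 2.56 and 2.52 CPM in that group and RSL4 at 1.1, 1.46 and 1.74, without overlap.

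**Figure D2:**
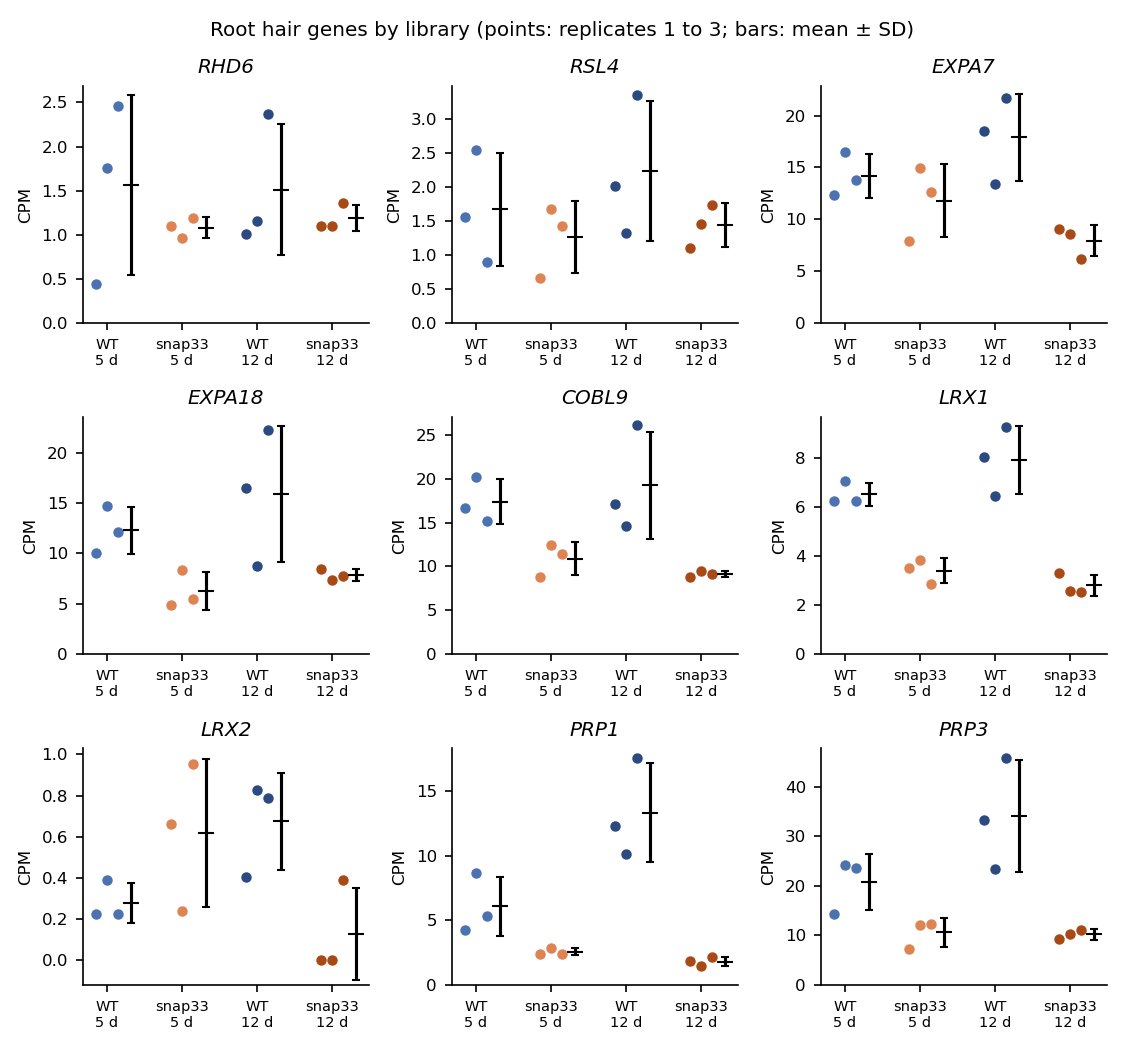
CPM (y axis, from 0 in each panel except LRX2, whose axis starts just below 0) of each of the 9 genes in every library; points are replicates 1 to 3, and the bar beside them is the mean ± SD of the group. PRP1 runs from 10.1 to 17.5 CPM in wild type at 12 d and from 1.46 to 2.13 in snap33 at 12 d, while RHD6 and RSL4 overlap between the genotypes at both ages.

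At 5 d the comparison of snap33 with wild type found 5 of the 6 tested genes lower in snap33 and 0 higher, with EXPA7 not called. A gene was called at an edgeR quasi-likelihood p under 0.05 after Benjamini-Hochberg adjustment over the 18830 genes tested, and 4.77% of those were called lower (898 genes, or 489 with the harvest day as a block) and 8.22% higher. The median log2 fold change of the 6 was -0.95, against 0 over all tested genes.

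Of the expansins, EXPA18 was called at 5 d and EXPA7 was not, and the difference between the genes was not tested. EXPA18 (AT1G62980, chromosome 1, 23331563 to 23333246), an alpha-expansin of root hair cells, stood at 10, 14.7 and 12.1 CPM in wild-type replicates 1 to 3 and at 4.84, 8.4 and 5.48 in snap33. All 3 snap33 libraries lay below the wild-type range, and the gene was lower (log2 fold change -0.99, SE 0.3, edgeR adjusted p = 0.0362). EXPA7 (AT1G12560, chromosome 1, 4276505 to 4277969), the second hair expansin, stood at 12.3, 16.5 and 13.8 CPM in wild type and 7.92, 14.9 and 12.6 in snap33. Here the genotypes overlapped, and the gene was not called (-0.28, SE 0.23, edgeR adjusted p = 0.491). The coding sequences of the pair are 75.4% identical where aligned, with no identical run longer than 21 bases. EXPA7 and EXPA18 overlap genes on the opposite strand by 23 and 46 bases.

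COBL9 (AT5G49270, chromosome 5, 19971884 to 19974530), a COBRA-like protein anchored to the membrane and needed for hair growth, stood at 16.7, 20.2 and 15.2 CPM in wild type and at 8.8, 12.5 and 11.4 in snap33 at 5 d. The groups did not overlap, and the call was the weakest of the 5 (-0.68, SE 0.22, edgeR adjusted p = 0.0431). It was lost under 11 of 19 alternatives. Among these were the replicate number or the harvest day as a block (edgeR adjusted p = 0.0519 and 0.0538). Leaving out replicate 1, 2 or 3 of snap33 at 12 d, a group outside the comparison, also lost it (edgeR adjusted p = 0.0566, 0.0551 and 0.0584).

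LRX1 (AT1G12040, chromosome 1, 4069992 to 4072681), the leucine-rich repeat extensin of hair walls, stood at 6.25, 7.06 and 6.25 CPM in wild type at 5 d and at 3.52, 3.84 and 2.86 in snap33. Every snap33 value was below every wild-type value (-0.93, SE 0.25, edgeR adjusted p = 0.0183). LRX2 (AT1G62440, chromosome 1, 23112933 to 23115293), its close relative, which acts with it in hair walls, had 1, 2 and 1 counts in wild type and 3, 1 and 4 in snap33. These counts are too few to order the genotypes (snap33 2.18-fold of wild type, exact 95% counting interval 0.584 to 9.89). The aligned coding sequences of LRX1 and LRX2 are 78.2% identical, with no identical run longer than 30 bases.

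The proline-rich proteins were both lower at 5 d. PRP1 (AT1G54970, chromosome 1, 20504901 to 20506504) stood at 4.24, 8.63 and 5.36 CPM in wild type and at 2.42, 2.88 and 2.38 in snap33 (-1.26, SE 0.34, edgeR adjusted p = 0.0176). PRP3 (AT3G62680, chromosome 3, 23182722 to 23184042) stood at 14.3, 24.3 and 23.7 CPM against 7.26, 12.2 and 12.4 (-0.98, SE 0.26, edgeR adjusted p = 0.019). Neither gene overlapped between the genotypes. In wild type PRP1 was highest in replicate 2 and PRP3 lowest in replicate 1. Their coding sequences are 83.8% identical where aligned, with an identical run of 33 bases, so some reads may not be divided between them with certainty.

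Of all tested genes 15.3% had all 3 snap33 libraries below all 3 wild-type libraries at 5 d, as 5 of the 9 genes did. Replicates 1, 2 and 3 of both genotypes were harvested on the same successive days, 5, 6 and 7 days after planting. For the 5 genes without overlap, the snap33 library must lie below the wild-type library within each of these days, so that order adds nothing. EXPA7, which overlapped, was also lower in snap33 on 3 of 3 days. Ratios of snap33 to wild type were 0.503 to 0.524 for PRP3 and 0.645 to 0.913 for EXPA7. The share of all tested genes lower on 3 of 3 days was not computed. For RHD6 and RSL4 the snap33 library was lower on 2 of 3 days. DESeq2 called 3 of the 6 genes at 5 d (EXPA18, PRP1 and PRP3), where 717 of its 18528 tested genes were lower and 1470 higher. The 5 d calls rest on few libraries. None of the 5 remained without wild-type replicate 2 or without snap33 replicate 1, 1 remained without snap33 replicate 3 (PRP3) and 2 without wild-type replicate 3 (LRX1 and PRP1), while the fold changes of the 5 genes stayed between -1.45 and -0.54 on the log2 scale. Over all tested genes the lower calls fell too, from 898 to 450, 466, 403 and 480 in these fits, in the same order.

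At 12 d all 6 tested genes were lower in snap33, where 20.5% of tested genes were called lower and 21.1% higher. Their median log2 fold change was -1.32, against -0.04 over all tested genes. All 6 calls held under each of the 19 alternative settings, including every left-out library and both blocks.

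PRP1 showed the largest fold change of the 6. It stood at 12.3, 10.1 and 17.5 CPM in wild-type replicates 1 to 3 and at 1.84, 1.46 and 2.13 in snap33, 7.24-fold lower (-2.86, SE 0.3, edgeR adjusted p = 2.74e-07). PRP3 stood at 33.4, 23.4 and 45.9 CPM against 9.2, 10.2 and 11.2, 3.33-fold lower (-1.73, SE 0.24, edgeR adjusted p = 1.08e-05). The lowest wild-type library of each gene lay above the highest snap33 library, by a wide margin in both.

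LRX1 stood at 8.06, 6.47 and 9.26 CPM in wild type and at 3.31, 2.56 and 2.52 in snap33 at 12 d, 2.8-fold lower (-1.48, SE 0.24, edgeR adjusted p = 4.86e-05). LRX2 had 2, 5 and 4 counts in wild type and 0, 0 and 2 in snap33. Over the summed counts its wild-type level was 5.5-fold that of snap33 with an exact 95% counting interval of 1.2 to 51, and without the low-count filter it was not called (edgeR adjusted p = 0.0783). A call for LRX2 in either direction was therefore not reached at either age.

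The expansins were both lower at 12 d. EXPA7 stood at 18.5, 13.4 and 21.7 CPM in wild type and at 9.02, 8.6 and 6.2 in snap33 (-1.16, SE 0.23, edgeR adjusted p = 0.000436). EXPA18 stood at 16.5, 8.79 and 22.3 CPM against 8.47, 7.32 and 7.75 (-1, SE 0.27, edgeR adjusted p = 0.0057). The wild-type libraries of EXPA18 spread widely, and its wild-type replicate 2 lay just above the snap33 range. Its log2 fold change was -0.66 without wild-type replicate 3 (edgeR adjusted p = 0.0394) and -1.3 without replicate 2 (edgeR adjusted p = 8.73e-05). COBL9 stood at 17.1, 14.6 and 26.2 CPM against 8.83, 9.52 and 9.11 (-1.07, SE 0.21, edgeR adjusted p = 0.0004).

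The 6 tested genes did not overlap between the genotypes at 12 d, and 25.2% of tested genes had every snap33 library below every wild-type library. For LRX2 each genotype held a library with 2 counts, and scaling alone set the snap33 library (0.388 CPM) below the wild-type library (0.403 CPM). All 6 were highest in wild-type replicate 3 of 12 d. The same libraries can be read from the summed CPM of the 9 genes. That sum was 109, 80.1 and 149 CPM in the wild-type libraries and 42.9, 42.3 and 42.4 in snap33. Wild-type libraries thus differed more among themselves than the snap33 libraries did. At 5 d the wild-type sums were 66.1, 96.1 and 79.9 CPM, against 37.2, 57.6 and 50.8 in snap33.

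**Figure D3:**
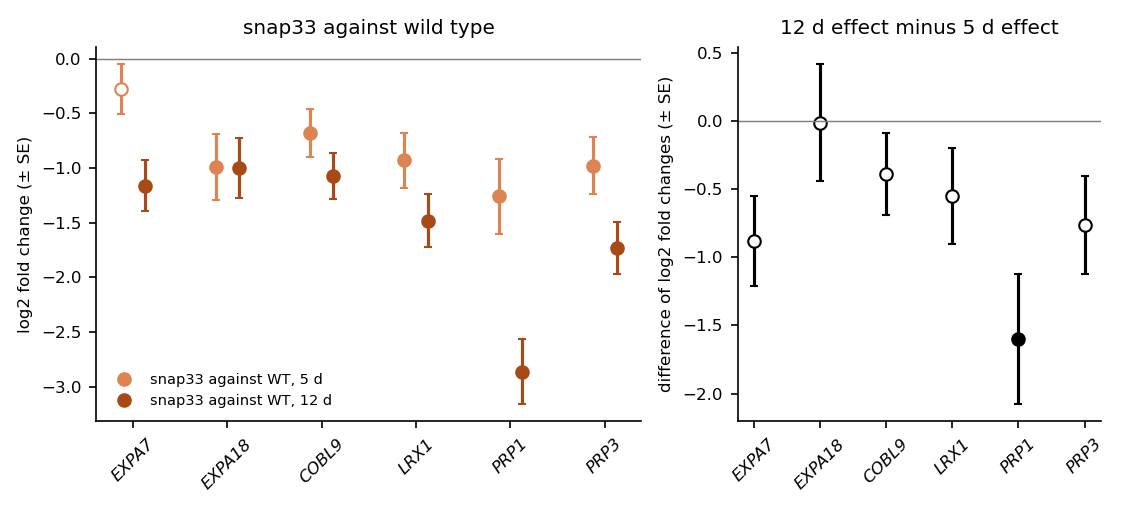
Left, log2 fold change of snap33 against wild type (y axis, ± SE) for the 6 tested genes at 5 d (light) and 12 d (dark); right, the 12 d effect minus the 5 d effect. Filled points were called at an edgeR adjusted p under 0.05: PRP1 falls from -1.26 to -2.86 and is the 1 gene called in the right panel.

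The difference between the snap33 effects at the 2 ages was tested directly. It was called for PRP1 alone (-1.6, SE 0.48, edgeR adjusted p = 0.0213), where 12.8% of all tested genes were called lower and 11% higher. That call was not reached without replicate 2 of snap33 at 5 d or at 12 d (edgeR adjusted p = 0.0563 and 0.0561). EXPA7 (-0.88, SE 0.33, edgeR adjusted p = 0.0587) and PRP3 (-0.76, SE 0.36, edgeR adjusted p = 0.145) missed the threshold. EXPA7 passed it under 5 of 18 alternatives, among them no low-count filter (edgeR adjusted p = 0.0288) and upper-quartile scaling (0.0373). For EXPA18 the difference was -0.01 (SE 0.43, edgeR adjusted p = 0.992), and its sign turned under several settings.

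With age the genotypes are given side by side, since the contrasts share libraries with those above. In wild type from 5 d to 12 d, PRP1 rose 2.15-fold (log2 fold change 1.1, SE 0.25, edgeR adjusted p = 0.00165) and PRP3 1.64-fold (0.71, SE 0.23, edgeR adjusted p = 0.0174), where 21.5% of tested genes were called higher and 19.2% lower. The wild-type libraries of PRP1 did not overlap between the ages and were higher at 12 d, as for 25.3% of tested genes, while 23% were lower without overlap. Those of LRX2 met at 2 counts and were parted by library scaling alone (0.392 against 0.403 CPM). Those of PRP3 overlapped. The PRP3 call was lost when replicate 1 of the 5 d group or replicate 3 of the 12 d group was left out (edgeR adjusted p = 0.105 and 0.112). EXPA7, EXPA18, COBL9 and LRX1 had log2 fold changes of 0.14 to 0.35 and were not called.

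For snap33 the age contrast depends on the same uncertain planting date. From the group named 5 d to that named 12 d, 0 of the 6 genes were called by edgeR, where 26.6% of tested genes were called lower and 28.2% higher. At an unadjusted p under 0.05 the fit gave 1, EXPA7 (log2 fold change -0.56, SE 0.25, edgeR adjusted p = 0.0617), and DESeq2 called 0. PRP1 (-0.5, SE 0.41) lay lower in all 3 snap33 libraries of 12 d than in those of 5 d, as did 30.6% of tested genes, but was not called (edgeR adjusted p = 0.319), and PRP3 was at -0.05 (SE 0.28, edgeR adjusted p = 0.896).

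A list of other wall and secreted proteins of root hairs had medians below 0 at both ages. Of 24 such genes 21 were tested, and at 5 d 6 were lower, 0 higher and 15 not called (median log2 fold change -0.86), while at 12 d 18 were lower, 1 higher and 2 not called (median -1.48). XTH12, XTH13 and RHS12 reached about 2.06 CPM in all 3 libraries of wild type at 12 d and of no other group. They passed the low-count filter through that group, so the 12 d count and median of this list depend in part on the filter. Over all tested genes 4.77% were lower and 8.22% higher at 5 d, and 20.5% and 21.1% at 12 d. EXT6, EXT13 and RHS13 were the 3 with the smallest p at 5 d. EXT6, an extensin, stood at 6.06 ± 3.09 CPM in snap33 against 15.4 ± 6.01 in wild type (SD, n = 3), 2.58-fold lower (edgeR adjusted p = 0.0131). EXT13, another extensin, was 2.02-fold and RHS13, named for its root hair specific expression, 1.92-fold lower. At 12 d EXT12 stood at 2.61 ± 1.1 against 18.4 ± 6.09 CPM, 6.92-fold lower (edgeR adjusted p = 1.55e-06), and EXT13 was 5.51-fold lower. Extensins share repeats, so counts may not be divided with certainty among them. The 1 gene that was higher, AT1G26250, annotated as a proline-rich extensin-like protein, stood at 37.6 ± 11.9 against 6.34 ± 3.58 CPM, 5.84-fold higher (edgeR adjusted p = 6.02e-07), and overlaps a gene on the opposite strand by 1609 bases. CSLD3, a cellulose synthase-like protein of hair walls, was not called at either age (-0.19, SE 0.18, at 5 d and 0.07, SE 0.17, at 12 d).

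Of 26 genes of tip growth and signalling 20 were tested. At 5 d 1 was lower and 0 higher (median -0.14), beside 4.77% of all tested genes lower, and at 12 d 7 were lower and 1 higher (median -0.19), beside 20.5% lower. RHD2, the NADPH oxidase of the hair tip, was the 1 lower at 5 d, at 2.25 ± 0.343 CPM in snap33 against 4.67 ± 0.778 in wild type (2.07-fold, edgeR adjusted p = 0.0264). It was not among those called at 12 d, where it stood at 4.31 ± 0.637 against 4.84 ± 1.13 CPM. At 12 d CAP1, a receptor-like kinase of hair growth, was 4.28-fold lower (edgeR adjusted p = 1.65e-05) and ACT2, an actin expressed throughout the plant, 1.64-fold lower (edgeR adjusted p = 4.73e-05). OXI1, a kinase of oxidative signalling that is also known from defence, was 6.45-fold higher (23.6 ± 0.665 against 3.7 ± 2.44 CPM, edgeR adjusted p = 6.02e-08). SYP123, a syntaxin of root hair tips, had 8 counts over wild type and 7 over snap33 at 5 d, and 19 and 14 at 12 d, and was not tested.

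**Figure D4:**
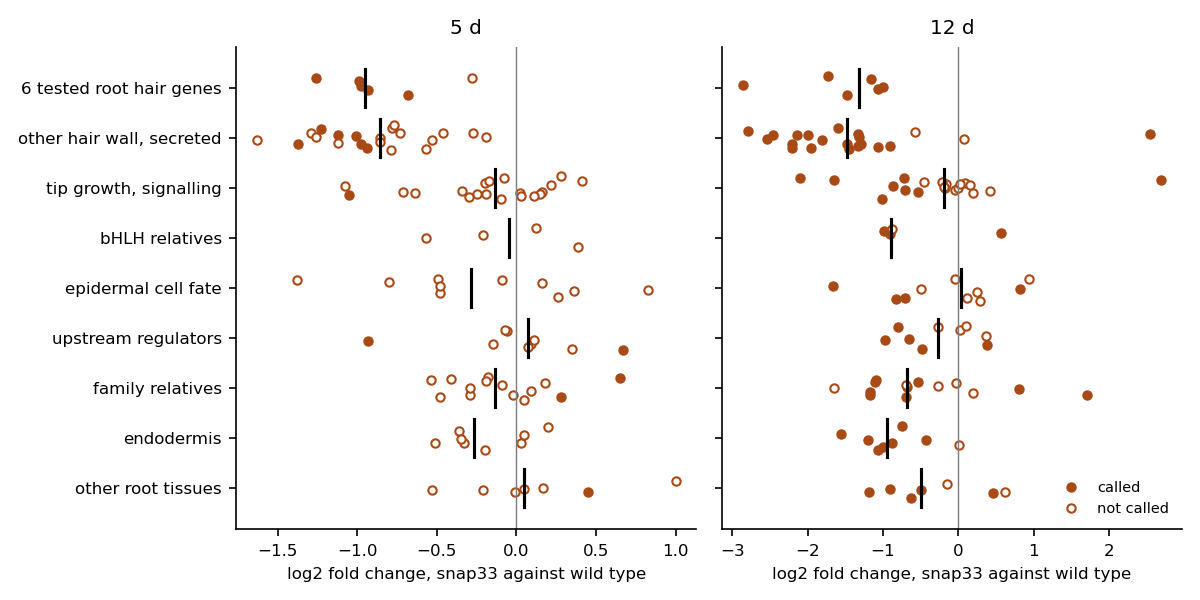
Log2 fold change of snap33 against wild type (x axis) for every tested gene of 9 lists at 5 d (left) and 12 d (right); filled points were called, and black bars are list medians. The 2 hair wall lists lie left of 0 at 5 d, with medians of -0.95 and -0.86, and at 12 d except for 2 genes of the second list, and the endodermis list moves from -0.27 to -0.94.

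Regulators of hair fate and hair growth were called in both directions at 12 d, where 21.1% of all tested genes were higher and 20.5% lower. At 5 d these shares were 8.22% and 4.77%. The lists are small, and whether they depart from these shares was not tested. Of 7 bHLH relatives of RHD6 and RSL4, 4 were tested, with 0 called at 5 d (median -0.05) and 1 higher and 2 lower at 12 d (median -0.89). The higher one was LRL1 (1.47-fold, edgeR adjusted p = 0.01), and LRL2 and LRL3 were 1.86-fold and 1.99-fold lower (edgeR adjusted p = 0.0312 and 0.00255). RSL2, which acts beside RSL4, stood at 1.42 ± 0.259 CPM in wild type and 1.56 ± 0.42 in snap33 at 5 d, and at 3.15 ± 1.71 and 1.69 ± 0.847 at 12 d, and was not called at either age. Of 11 genes of epidermal cell fate 10 were tested, with 0 called at 5 d (median -0.28) and 1 higher and 3 lower at 12 d (median 0.03). TRY, a small MYB protein, was 3.15-fold lower at 12 d (6.6 ± 0.189 against 20.9 ± 5.19 CPM, edgeR adjusted p = 5.59e-07), SUB, a receptor kinase of cell patterning, 1.64-fold lower and GL2, a homeodomain protein that blocks the hair fate, 1.77-fold lower. Other genes of this list went the other way, and 5 of the 10 tested lay below 0 at 12 d. WER stood at 4.62 ± 0.527 CPM in snap33 against 2.59 ± 0.544 in wild type, and CPC at 3.23 ± 0.487 against 1.66 ± 0.562.

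Of 9 upstream regulators of hair growth, all tested, 1 was higher and 1 lower at 5 d and 1 higher and 4 lower at 12 d. Beside them 8.22% of all tested genes were higher and 4.77% lower at 5 d, and 21.1% and 20.5% at 12 d. OBP4, a Dof factor that represses hair growth, was higher at 5 d, at 27.3 ± 2.02 CPM against 17.2 ± 0.697 in wild type (1.59-fold, edgeR adjusted p = 0.026). ZFP5, a zinc finger factor that promotes hair formation, stood at 5.59 ± 0.53 against 10.6 ± 1.1 CPM (1.91-fold lower, edgeR adjusted p = 0.00376). At 12 d these stood at 29.5 ± 5.1 against 35.6 ± 10.5 CPM and 12.3 ± 0.643 against 9.54 ± 1.41 CPM and were not called, and the difference between the ages was called for both (edgeR adjusted p = 0.0121 and 0.00124). AUX1, an auxin influx carrier, was 1.74-fold lower at 12 d (edgeR adjusted p = 0.000132), GTL1, a trihelix repressor of hair growth, 1.57-fold and ARF19, an auxin response factor, 1.96-fold lower. EIN3, of the same list, went the other way, at 150 ± 19.6 CPM in snap33 against 115 ± 10.8 in wild type. Of the 9 genes 5 lay below 0 at 12 d.

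Markers of other root tissues were lower in part at 12 d, where 20.5% of all tested genes were lower and 21.1% higher. At 5 d these shares were 4.77% and 8.22%. Of 8 endodermis genes 0 were called at 5 d and 7 were lower at 12 d (median -0.94), among them CASP1, which builds the Casparian strip (2-fold, edgeR adjusted p = 5.5e-05), CASP2 (2.3-fold) and ESB1 (1.84-fold), which overlaps a gene on the opposite strand by 1772 bases. Their summed CPM ranged from 194 to 228 in snap33 and 231 to 233 in wild type at 5 d, and from 197 to 201 and 263 to 455 at 12 d, with the highest wild-type value again in replicate 3. Of 12 genes of other root tissues 7 were tested, with 1 higher and 0 lower at 5 d and 1 higher and 4 lower at 12 d, and summed CPM of 329 to 367 in snap33 and 471 to 511 in wild type at 12 d. Much of that gap lay in TIP2;3 (83.2 ± 11.4 against 155 ± 31.5 CPM) and AT1G62500 (34 ± 6.87 against 77.6 ± 28.2). SHR went the other way, at 34.7 ± 1.41 against 25.4 ± 2.42 CPM at 5 d and 26.3 ± 1.25 against 19 ± 2.77 at 12 d. Of the 7 tested genes 5 lay below 0 at 12 d. No gene of either list was at 0 over a group. Divided by the summed CPM of these root lists, the 9 hair genes came to 0.0659 ± 0.011 in snap33 and 0.104 ± 0.0174 in wild type at 5 d, and to 0.0777 ± 0.00332 and 0.134 ± 0.0291 at 12 d (SD, n = 3), with no overlap between the genotypes at either age. These lists themselves include genes that were lower at 12 d, so the ratio is a description, and the part of root amount in the lower values was not tested. Of 5 genes of shoot photosynthetic tissue 4 were lower at 12 d and 0 were called at 5 d, with summed CPM of 6890 to 7730 in snap33 and 9970 to 11500 in wild type at 12 d. The trichome gene MYB0 was not called at either age (-0.66 and -0.17).

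**Figure D5:**
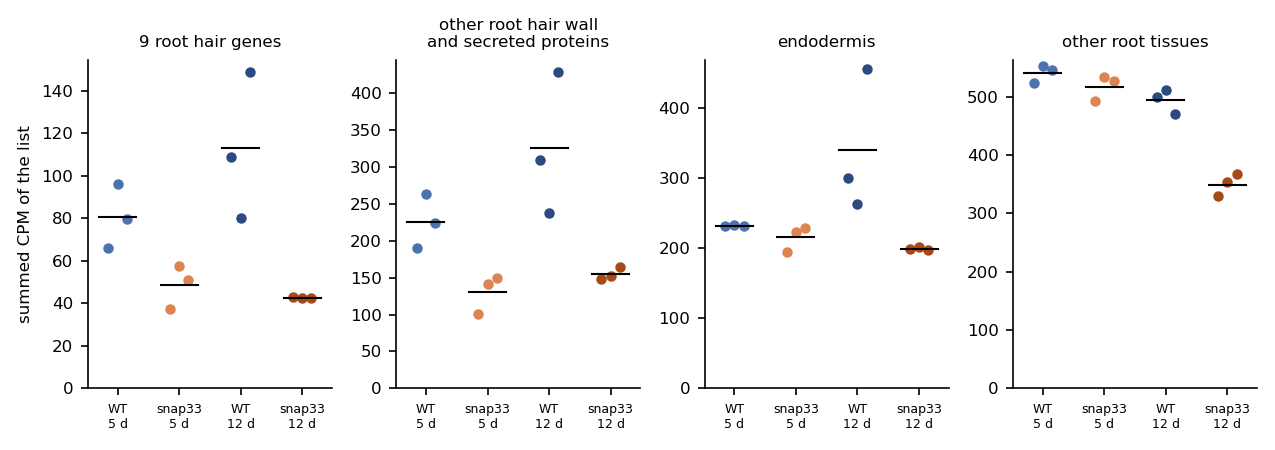
Summed CPM (y axis, from 0) of the 9 root hair genes and of 3 other lists in every library; points are replicates 1 to 3 and bars are group means. The hair gene sums of snap33 lie below those of wild type at both ages (37.2 to 57.6 against 66.1 to 96.1 CPM at 5 d), and wild-type replicate 3 of 12 d is highest for the hair and endodermis lists.

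Of 17 other LRX, COBRA-like and proline-rich genes, relatives not known for root hairs, 14 were tested. At 5 d 2 were higher (COBL2 and PRP4, 1.57-fold and 1.21-fold) and 0 lower, with a median log2 fold change of -0.14, where 8.22% of all tested genes were higher and 4.77% lower. At 12 d 2 were higher and 7 lower (median -0.69), where 21.1% of all tested genes were higher and 20.5% lower. PRP2 and PRP4, proline-rich proteins with the same name as PRP1 and PRP3, were 2.13-fold and 1.61-fold lower at 12 d (edgeR adjusted p = 8.12e-08 and 3.22e-06). COBL5 was 3.27-fold higher (edgeR adjusted p = 3.25e-06), and overlaps a gene on the same strand by 63 bases.

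Across the 12 libraries the 6 tested genes ran together, with pairwise Pearson correlations of log2 CPM from 0.77 (EXPA7 and EXPA18) to 0.95 (PRP1 with LRX1 and with PRP3). This is a description over 12 libraries in 4 groups that share their depth and scaling. The differences between the groups given above enter these correlations, and correlations within groups were not computed. The 10 genes outside the set that ran closest to its mean profile had correlations of 0.952 to 0.966, and 2 of them, EXT12 and EXT13, belong to the hair wall list. The closest were ADF8, an actin depolymerizing factor, whose group means were 11.2 CPM in wild type and 7.06 in snap33 at 5 d and 15.4 and 6.29 at 12 d, and AT2G47530, annotated as a pollen Ole e 1 allergen and extensin family protein, at 4.17, 2.11, 6.95 and 1.99 CPM in the same order. The others were AT3G49960, annotated as a peroxidase, FUT5, a fucosyltransferase, AGP24, an arabinogalactan protein, RCI2B, annotated with low temperature and salt response, SAPX, a stromal ascorbate peroxidase, and AT5G42510, annotated as dirigent-like.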

How the data were processed

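STAR and the TAIR10 build are named in the submitters' processing notes, and each deposited file ends with the summary categories that htseq-count writes. The labels' protocols name a stranded poly(A) kit, and that of snap33 12 d replicate 1 also mentions 3'seq. The strand setting and annotation used in counting were not given in these sources. The authors deposited raw counts of reads per gene. The summary categories, 9.26% to 12.15% of each library, were set aside. Tests used edgeR 4.0.16 (R 4.3.3) with TMM factors and filterByExpr at its defaults, which kept 18830 genes, 1 mean per group over all 12 libraries, quasi-likelihood tests and Benjamini-Hochberg adjustment over all tested genes. CPM are counts divided by the TMM-scaled library size, where 1 count is 0.166 to 0.24 CPM, and per-kilobase values use exon lengths of the RefSeq TAIR10.1 annotation. SE is the absolute log2 fold change over the square root of F. Correlations use log2 CPM with a prior count of 2. The code was tested on simulated data. Alternatives were DESeq2 1.42.0, other scalings, no filter, blocks and left-out libraries.

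The genes, lists, the rule for named genes (all 9 genes; up to 3 called genes of each other list by smallest p; the 10 closest profiles) and the alternatives were chosen with earlier results of these data known. CSLD3, RSL2, SYP123 and MYB0 fall outside that rule. They and WER, CPC, EIN3, SHR, AT1G62500 and TIP2;3 were named after their values were seen. The shoot photosynthetic list was given by its counts and sums alone. Of 120 list genes 106 carried the intended symbol in TAIR10.1, and the others are named as annotated there. TAIR10.1 gave positions and sequences and was not used for counting. Replicate numbers pair the genotypes, since the labels give same-numbered libraries of an age the same harvest day, although same-numbered libraries did not deviate together (correlations of -0.25 to 0). Nothing says that replicates came from separate plates, so p-values measure the spread between these samples.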

Additional observations from a re-analysis of the deposited data

Results flagged for a closer look

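The effect of snap33 on PRP1 differed between the ages by the test of the difference: it was -1.26 at 5 d and -2.86 at 12 d on the log2 scale, a difference of -1.6 (SE 0.48, edgeR adjusted p = 0.0213). PRP1 was lower in snap33 on 3 of 3 harvest days at each age. That follows from the lack of overlap between the genotypes and does not bear on the difference between the ages. The labels give the 12 d groups different planting dates, which may be an error in the labels, and the part of this was not tested.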

How the results depend on the processing

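Of 552 re-computed values of the 6 tested genes, 497 kept their direction and their side of the threshold. This total includes contrasts in which a gene was never called and fits without a library outside the contrast. The 5 d calls were less stable. Of 19 alternatives, 11 lost the call of COBL9, 4 that of EXPA18, 4 that of LRX1, 3 that of PRP1 and 3 that of PRP3. The count of genes called at 5 d was 5, and 3 with DESeq2, and with the replicate block and the harvest-day block it was 4 each. Over all tested genes these fits gave 898, 717, 721 and 489 lower calls. Leaving out 1 library gave 0 to 5 at 5 d, 6 in every case at 12 d, 0 to 3 for the difference between the ages, 1 to 3 for wild type with age and 0 to 1 for snap33 with age. Over all tested genes the left-out fits gave 403 to 1307 lower calls at 5 d, 3067 to 4037 at 12 d and 1872 to 2729 for the difference. For wild type with age they gave 3421 to 4204 higher calls, and for snap33 with age 4389 to 5366 lower calls. The difference had 1 call, and 2 without the low-count filter and with upper-quartile factors, where lower calls over all genes were 2401, 2506 and 2919. For snap33 with age the count of 0 became 1 (EXPA7) without that filter, with upper-quartile factors and with a fit of only the groups compared. Lower calls over all genes there were 5112, 6313 and 5224, against 5010. EXPA18's difference turned sign with RLE factors (0.01), the replicate block (0) and the harvest-day block (0.03), and ranged from -0.32 to 0.32 without single libraries. COBL9 in wild type with age ranged from -0.14 (without wild-type 12 d replicate 3) to 0.31, and PRP3 in snap33 with age from -0.27 to 0.07, without single libraries. The cause was not tested. Upper-quartile scaling moved the median of all genes at 12 d from -0.037 to -0.156, with 3199 higher and 5186 lower calls against 3964 and 3862. At 12 d the blocks changed none of the 6 calls. Depth limits RHD6, RSL4 and LRX2, which had 79, 98 and 25 counts over all 12 libraries.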
